A study of Mus musculus with 10 samples.

Results

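This account describes 48 genes of mitosis in mouse embryonic fibroblasts that lack a subunit of SWI/SNF, the ATP-driven complex that moves nucleosomes. The genes encode mitotic kinases and their regulators, the spindle checkpoint, the chromosomal passenger complex, the kinetochore, spindle proteins, condensin, cytokinesis factors and factors of mitotic exit. They were chosen by name, and every probe set annotated with one of the names was taken. Of the 48 genes, 46 had a probe set on the array and 45 passed the filter on dim probe sets, out of 12393 genes on the array and 8397 past the filter. Cdca8 (borealin, of the passenger complex) and Espl1 (separase) had no probe set listed, and Cdc25c fell below the filter.

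Total RNA was hybridized to 10 Affymetrix arrays. There were 4 arrays of Brg1-/- cells, which lack the ATPase encoded by Smarca4, 3 arrays of Snf5-/- cells, which lack the core subunit encoded by Smarcb1, and 3 arrays of WT (wild type) cells. The cells were primary fibroblasts of E13.5 embryos, mid-gestation, whose strain was a mixture of C57BL/6 and 129. All of them, WT cells included, received Cre recombinase by retrovirus and were selected with puromycin at 2.5 ug/ml, so the groups share virus and drug, and each holds the infected cells that were selected. Whether replicate arrays stand for different embryos, cultures or only different hybridizations is not said in the labels. The p-values therefore cover the spread among these 10 arrays and nothing wider, and this small number sets the precision. The ages of the cultures and the share of dividing cells are not given. Because RNA came from whole cultures, a different share of cells in mitosis and a different amount of a transcript per cell cannot be told apart.

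A cell enters mitosis when cyclin-dependent kinase, joined by the Polo and Aurora kinases, phosphorylates chromosomes, spindle and nuclear envelope. Condensin compacts the chromosomes, kinetochores bind them to microtubules, and the spindle checkpoint blocks the anaphase-promoting complex, a ubiquitin ligase, until every chromosome is attached. Most of these genes are transcribed late in the cell cycle and are repressed in resting cells by the DREAM complex, which binds a promoter element called the cell cycle genes homology region (CHR), often near CCAAT boxes bound by the factor NF-Y.

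Values below are quantile-normalized array intensities, which compare arrays for a gene and not genes with each other. A log2 change is given with the standard error of the limma fit, and a gene is said to have risen or fallen where its p-value, adjusted over all 8397 genes, was under 0.05. On the deposited scale the array medians ran from 146 to 168 in Brg1-/- arrays, from 164 to 189.9 in Snf5-/- arrays and from 191 to 234 in WT arrays. The median log2 change of all genes was -0.47 for Brg1-/- against WT, -0.27 for Snf5-/- against WT and -0.20 for Brg1-/- against Snf5-/- on the deposited scale, against 0.02, 0.02 and -0.01 after quantile normalization. Changes below are relative to the array as a whole. The targeted genes followed their labels: Smarca4 measured 468, 477, 452 and 695 in Brg1-/- arrays, 2977, 2718 and 2953 in Snf5-/- arrays, and 2459, 2108 and 2118 in WT arrays, and Smarcb1 measured 1003, 1035, 1036 and 1220.2 in Brg1-/- arrays, 302, 301 and 303 in Snf5-/- arrays, and 757, 753 and 846 in WT arrays. Fibroblast markers were above the highest bacterial control probe set in every array for all 11 listed genes with a probe set. Summed intensity of 15 macrophage and leukocyte markers ran from 2835 to 6736 in Brg1-/- arrays, from 3501 to 12610.0 in Snf5-/- arrays and from 3017 to 6320.0 in WT arrays, with the highest value in Snf5-/- replicate 2. Summed intensity of 6 skeletal muscle markers ran from 666 to 976 in Brg1-/- arrays, from 806 to 1954 in Snf5-/- arrays and from 5186 to 6217 in WT arrays. Acta1 made up most of the WT sum, with 283 to 416 in Brg1-/- arrays, 404 to 1253 in Snf5-/- arrays and 4361 to 5548 in WT arrays, whereas Ckm overlapped between the groups, with 133 to 239 in Brg1-/- arrays, 128 to 198 in Snf5-/- arrays and 150.1 to 207 in WT arrays. Summed epithelial and mesothelial markers, 9 genes, ran from 790.1 to 939.9 in Brg1-/- arrays, from 1034 to 1560.0 in Snf5-/- arrays and from 1541 to 1860.0 in WT arrays. Among them Msln measured 29.0 to 60.7 in Brg1-/- arrays, at most 69.3 in Snf5-/- arrays and 357 to 403 in WT arrays. Krt19 and Krt8 overlapped between the groups. Krt19 measured 349 to 464.5 in Brg1-/- arrays, 368 to 661 in Snf5-/- arrays and 393 to 546 in WT arrays. Krt8 measured 74.2 to 213 in Brg1-/- arrays, 185 to 257 in Snf5-/- arrays and 134.5 to 216 in WT arrays. Of the defining markers, Epcam was at or below the highest bacterial control in all 10 arrays, Cdh1 in 9, Myh3 in 8, Myog in 6 and Ptprc in 3, while Lyz2, Cd68, Krt8, Krt18 and Krt19 were above it in all. The part of these markers in the results was not tested apart from leaving out Snf5-/- replicate 2.

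Nearly the whole mitotic group was higher in Brg1-/- cells than in WT cells. Of the 45 genes tested, 43 rose, and 43 had every Brg1-/- array above every WT array. Over all 8397 genes 14.9% rose and 21.0% had their arrays apart in that direction. None of the 45 fell, by limma's adjusted p or at an unadjusted p under 0.05, while 12.9% of all genes fell. The median log2 change of the 45 was 1.39, with a range of -0.23 to 2.89. Without further scaling, on the deposited values, 34 of the 45 still rose and 0 fell, where 3.43% of all genes rose and 44.1% fell, and the median change of the 45 was 0.91. The 9 rises that did not pass on that scale were those of Cks1b, Bub3, Ttk, Tpx2, Spag5, Ckap2, Ncaph, Anln and Pttg1.

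Snf5-/- cells showed a smaller difference from WT cells. Of the 45 genes 28 rose and 0 fell, also at an unadjusted p under 0.05, against 10.6% of all genes that rose and 7.47% that fell, and 30 had every Snf5-/- array above every WT array, against 19.5% of all genes. Their median log2 change was 0.70. On the deposited scale 13 rose and 0 fell, against 3.16% and 16.1% of all genes, with a median of 0.41 for the 45. The 13 were Cdk1, Plk1, Melk, Cks2, Bub1b, Spc25, Nusap1, Stmn1, Ncapd2, Top2a, Cdc20, Ube2c and Cdca3. On the quantile-normalized scale 15 genes rose without WT replicate 3, 17 without Snf5-/- replicate 1 and 18 without WT replicate 1. Both mutants were compared with the same 3 WT arrays, so the comparisons are not independent.

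Set directly against each other, Brg1-/- cells had higher levels of 24 of the 45 genes than Snf5-/- cells and lower levels of 0, also at an unadjusted p under 0.05. Over all genes 2.10% were higher and 2.27% lower. The median log2 difference was 0.76, and 31 of the genes had every Brg1-/- array above every Snf5-/- array, against 8.29% of all genes. On the deposited scale 6 genes were higher and 0 lower, against 0.369% and 3.93% of all genes, and the 6 were Birc5, Dlgap5, Tacc3, Ncapg, Mki67 and Ube2c. The count of 24 was 10 without Snf5-/- replicate 2, and 9 without Brg1-/- replicate 2 or replicate 3. Birc5, Dlgap5, Ncapg, Mki67 and Ube2c were called in the main analysis and in each of the 9 alternatives apart from leaving out single arrays.

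**Figure D1:**
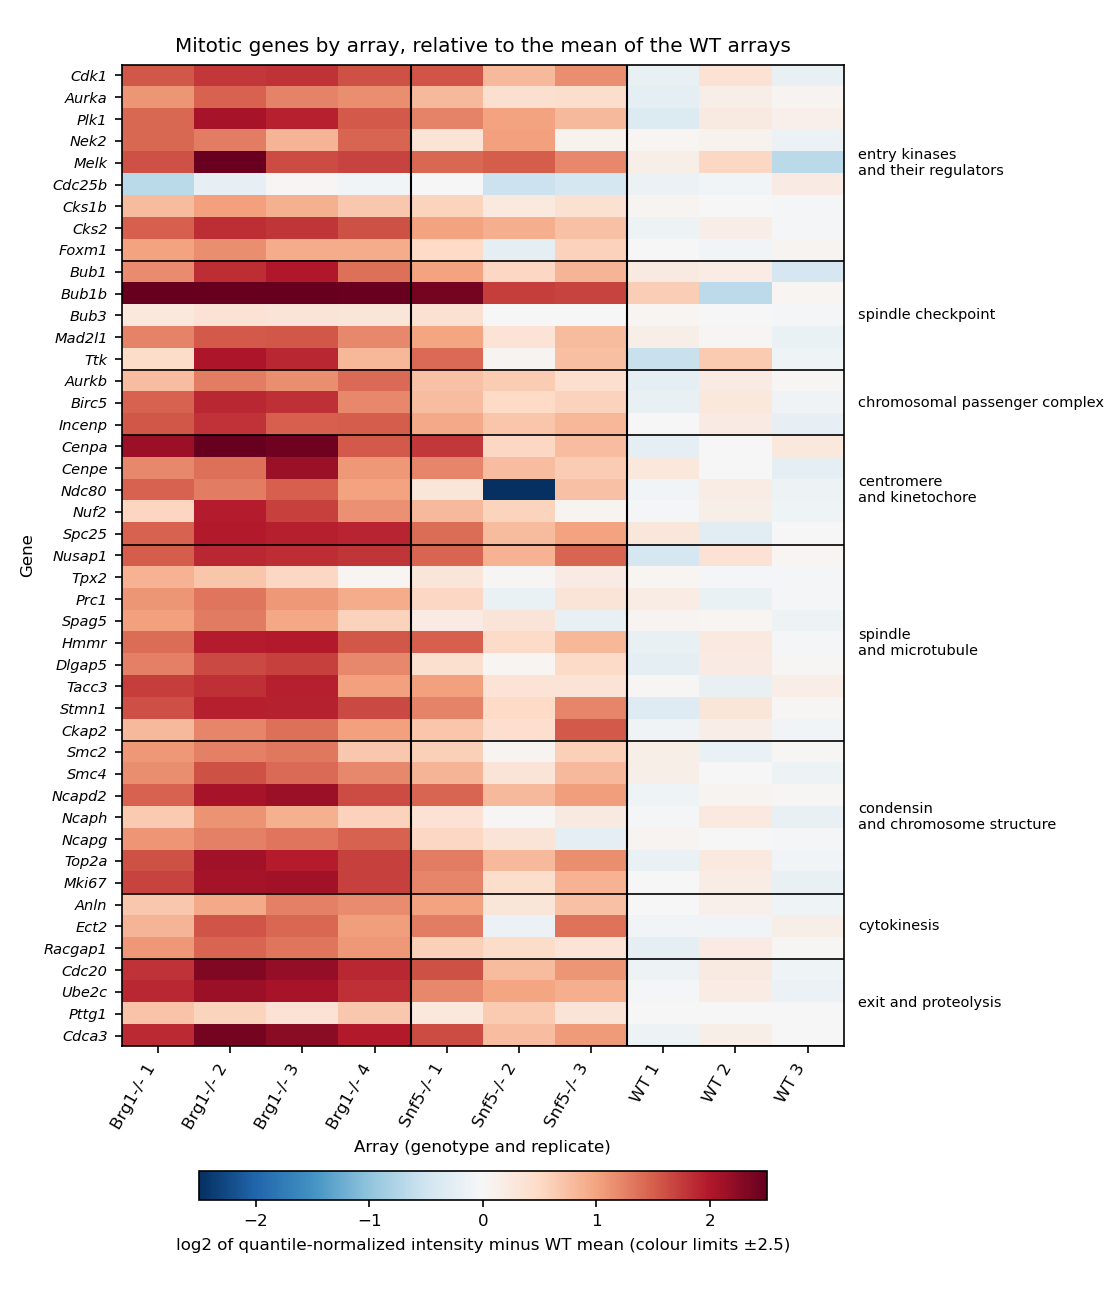
Log2 intensity of each of the 45 tested mitotic genes (rows, ordered by function) in each of the 10 arrays (columns), relative to the mean of the gene's 3 WT arrays. Brg1-/- arrays have medians over the genes of 1.20 to 1.66, Snf5-/- arrays of 0.48 to 0.99 and WT arrays of -0.05 to 0.14.

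The arrays of a genotype were not alike in this group, as the map of genes by array shows. The median gene lay 1.24, 1.66, 1.62 and 1.20 above the WT mean, on the log2 scale, in Brg1-/- replicates 1 to 4. In Snf5-/- replicates 1 to 3 it lay 0.99, 0.48 and 0.74 above. Brg1-/- replicate 2 had the highest value of its group for 26 of the 45 genes, and Snf5-/- replicate 1 for 36, while Snf5-/- replicate 2 had the lowest for 31. Snf5-/- replicate 2 was also the array with the highest leukocyte marker sum, and that sum was 3501 and 3656 in the other Snf5-/- arrays. Without that array 28 of the mitotic genes rose in Snf5-/- cells against WT, as many as with it. The number higher in Brg1-/- than in Snf5-/- cells was 10 without it and 24 with it.

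Promoters of the 6 genes with the largest rise in Brg1-/- cells against WT cells are shown because late cell cycle genes are known for their shared promoter elements and because these genes moved together. The 250 bases before the start site are given from RefSeq (GRCm38.p6), in the direction of transcription. Capitals mark CCAAT and the CHR letters TTTGAA or TTCGAA on either strand, so that ATTGG is CCAAT and TTCAAA is TTTGAA on the opposite strand. Bub1b lies at chr2:118597961-118598210 on the plus strand, Cenpa at chr5:30666636-30666885 (plus), Cdca3 at chr6:124829926-124830175 (plus), Cdc20 at chr4:118437344-118437593 (minus), Ube2c at chr2:164769679-164769928 (plus) and Mki67 at chr7:135716380-135716629 (minus).
Bub1b: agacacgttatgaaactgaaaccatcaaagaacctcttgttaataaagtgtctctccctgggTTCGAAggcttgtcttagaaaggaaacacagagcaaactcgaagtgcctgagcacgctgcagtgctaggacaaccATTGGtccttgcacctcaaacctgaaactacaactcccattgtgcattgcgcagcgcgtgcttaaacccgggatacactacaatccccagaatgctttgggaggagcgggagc
Cenpa: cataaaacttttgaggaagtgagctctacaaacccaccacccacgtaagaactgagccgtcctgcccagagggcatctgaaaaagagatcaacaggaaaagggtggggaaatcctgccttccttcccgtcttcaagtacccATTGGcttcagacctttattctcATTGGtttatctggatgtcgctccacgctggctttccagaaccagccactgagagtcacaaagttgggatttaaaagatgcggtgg
Cdca3: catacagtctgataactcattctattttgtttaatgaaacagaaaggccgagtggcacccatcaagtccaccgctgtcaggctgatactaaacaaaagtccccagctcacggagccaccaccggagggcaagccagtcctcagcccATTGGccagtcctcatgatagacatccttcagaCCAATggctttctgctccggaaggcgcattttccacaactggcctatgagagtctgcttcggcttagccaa
Cdc20: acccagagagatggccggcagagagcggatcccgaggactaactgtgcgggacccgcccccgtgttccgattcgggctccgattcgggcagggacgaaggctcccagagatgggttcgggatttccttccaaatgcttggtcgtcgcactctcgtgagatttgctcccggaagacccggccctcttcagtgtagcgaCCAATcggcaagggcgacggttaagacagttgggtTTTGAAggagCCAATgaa
Ube2c: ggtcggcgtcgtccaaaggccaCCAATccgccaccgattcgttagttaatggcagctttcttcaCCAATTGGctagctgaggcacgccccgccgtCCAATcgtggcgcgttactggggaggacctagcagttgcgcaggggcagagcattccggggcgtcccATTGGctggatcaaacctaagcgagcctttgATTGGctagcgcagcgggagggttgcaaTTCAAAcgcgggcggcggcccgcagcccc
Mki67: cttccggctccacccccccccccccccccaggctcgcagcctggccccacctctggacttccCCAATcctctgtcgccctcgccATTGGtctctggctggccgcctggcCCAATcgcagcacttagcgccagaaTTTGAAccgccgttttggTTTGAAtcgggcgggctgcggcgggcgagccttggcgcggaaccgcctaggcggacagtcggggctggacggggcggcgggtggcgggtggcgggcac

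Each of these promoters held CCAAT and a CHR. In Cdc20, TTTGAA lay at positions -18 to -13, with CCAAT at -53 to -49 and again at -8 to -4. Mki67 held TTTGAA at -116 to -111 and at -98 to -93, downstream of CCAAT boxes at -188, -166 and -141. Ube2c had 6 matches to CCAAT, of which 2 overlap in CCAATTGG, and TTTGAA on the minus strand at -29 to -24. In Bub1b the variant TTCGAA lay at -188 to -183. The TTTGAA matches of Cenpa (17 to 22), Cdca3 (31 to 36) and Bub1b (41 to 46) lay after the start and outside the printed bases, as did the last base of a CCAAT in Cdca3 (-4 to 1).

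RefSeq listed 43 promoters of 40 of the 48 genes, and motifs were counted on both strands from 250 bases before to 50 after the start. TTTGAA or TTCGAA was present in 32 of the 43 promoters (74.4%), against 13.4% of 8844 promoters of tested genes, 17.3% of 1372 promoters of genes that rose in Brg1-/- cells and 19.2% of all 32851 promoters. CCAAT was present in 76.7% of the mitotic promoters, against 37.1%, 42.5% and 37.4% of those 3 sets. Both occurred together in 69.8%, against 5.28%, 9.4% and 7.52%. Of the CHR matches in mitotic promoters, 74.4% began within 100 bases before the start or after it, a stretch that is 50% of the window, against 37.2% of the matches in promoters of tested genes. Neither a CHR, its variant nor CCAAT was found in the windows of Birc5, Mad2l1, Melk, Ncaph, Nuf2, Nusap1, Pttg1 or Tacc3. Of these, all rose in Brg1-/- cells on the quantile-normalized scale. Ncaph and Pttg1 did not pass on the deposited scale, with log2 changes of 0.36 and -0.04. A match describes letters only and shows no binding.

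**Figure D2:**
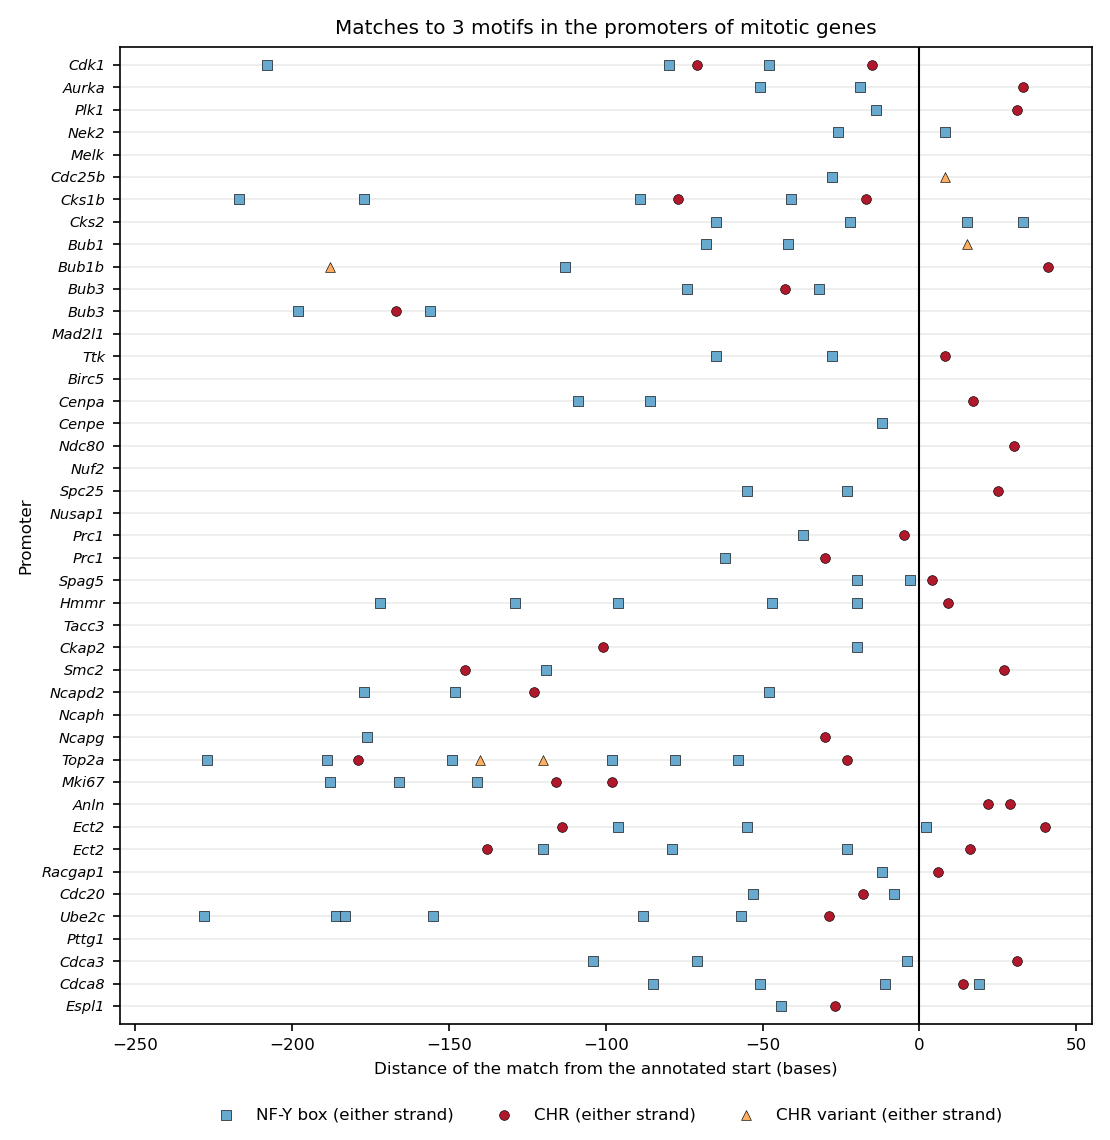
Positions of the NF-Y box, the CHR and its variant in RefSeq promoters of the mitotic genes (rows), with distance from the transcription start in bases on the x axis. Of the CHR matches 74.4% begin within 100 bases before the start or after it.

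Kinases that drive entry into mitosis rose with few exceptions. Of 9 tested genes of this group 8 rose in Brg1-/- cells and 6 in Snf5-/- cells against WT, and 4 were higher in Brg1-/- than in Snf5-/- cells. Cdk1, the cyclin-dependent kinase of mitosis, measured 3011, 3524, 3591 and 3097 in Brg1-/- arrays, 3062, 1815 and 2319.6 in Snf5-/- arrays, and 903, 1332 and 913 in WT arrays. Its arrays were apart from WT in both mutants but overlapped between the mutants, where Snf5-/- replicate 1 lay among the Brg1-/- arrays. The log2 change was 1.68 ± 0.18 in Brg1-/- cells (adjusted p = 4.51e-05) and 1.19 ± 0.19 in Snf5-/- cells (adjusted p = 0.00129). Cks2, a small subunit that binds this kinase, measured 3015, 3843, 3734 and 3235 in Brg1-/- arrays, 2171, 2019 and 1796 in Snf5-/- arrays, and 984, 1213 and 1045 in WT arrays. The 3 groups did not overlap, and Brg1-/- cells exceeded Snf5-/- cells by 0.79 ± 0.12 (adjusted p = 0.00489). The related Cks1b measured 6497, 7648, 6922 and 5962 in Brg1-/- arrays, 5557, 4471 and 4894 in Snf5-/- arrays, and 3926, 3739 and 3626 in WT arrays, with no overlap between groups and changes of 0.84 and 0.40 in Brg1-/- and Snf5-/- cells against WT. Those changes of Cks1b on the deposited scale were 0.21 (adjusted p = 0.292) and 0.02 (adjusted p = 0.939), so neither call held.

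Plk1, the Polo kinase of centrosomes and kinetochores, measured 559, 861, 779.9 and 596 in Brg1-/- arrays, 489, 415 and 362 in Snf5-/- arrays, and 161, 239 and 226 in WT arrays. It rose by 1.74 ± 0.19 in Brg1-/- cells and 1.03 ± 0.20 in Snf5-/- cells, while the difference between the mutants, 0.71 ± 0.19, had an adjusted p of 0.0548 although their arrays did not overlap. Aurka, the Aurora kinase of spindle poles, measured 937, 1200.3, 1028 and 972 in Brg1-/- arrays, 761, 573 and 586 in Snf5-/- arrays, and 374, 478 and 457 in WT arrays. All 3 groups were apart, and all 3 differences passed. Foxm1, a transcription factor that activates late cell cycle genes, measured 794, 892, 751 and 759.7 in Brg1-/- arrays, 559, 338 and 589.9 in Snf5-/- arrays, and 396, 377 and 419 in WT arrays. In Snf5-/- cells it overlapped WT through the 338 of replicate 2 (log2 change 0.28 ± 0.18, adjusted p = 0.325), and it was higher in Brg1-/- cells than in either of the other groups.

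The kinase Melk rose by 1.84 in Brg1-/- cells and 1.39 in Snf5-/- cells, with 209 to 387 in Brg1-/- arrays, 161 to 199 in Snf5-/- arrays and 43.7 to 100 in WT arrays. Nek2, a kinase of centrosome separation, rose in Brg1-/- cells alone among the comparisons (1.26), with 192 to 293 in Brg1-/- arrays, 113 to 216 in Snf5-/- arrays and 96.5 to 114 in WT arrays. Cdc25b and Cdc25c are phosphatases that activate Cdk1. Cdc25b measured 104, 144, 169 and 157 in Brg1-/- arrays, 166, 113 and 122 in Snf5-/- arrays, and 150.3, 158 and 191 in WT arrays, so that all groups overlapped and no comparison passed, with a log2 change of -0.23 ± 0.23 in Brg1-/- cells (adjusted p = 0.499). Cdc25c, too dim for the test, measured 78.6, 104, 124 and 80.6 in Brg1-/- arrays, 76.2, 78.4 and 22.6 in Snf5-/- arrays, and 6.83, 11.6 and 34.0 in WT arrays. All WT arrays lay at or below the highest bacterial control, which makes Cdc25c at least 3.12-fold higher in Brg1-/- cells, with no test past the filter. Snf5-/- replicate 3 also lay at or below that control, and below WT replicate 3, so no least fold is given for Snf5-/- cells.

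All 5 spindle checkpoint genes rose in Brg1-/- cells and 3 in Snf5-/- cells. Bub1b, the BubR1 inhibitor of the anaphase-promoting complex, had the largest log2 change of all 45 genes in both mutants. It measured 792, 1089, 1005 and 648 in Brg1-/- arrays, 609.5, 385 and 377 in Snf5-/- arrays, and 178, 73.6 and 121 in WT arrays. No groups overlapped, and the change was 2.89 ± 0.28 in Brg1-/- cells (adjusted p = 2.65e-05) and 1.94 ± 0.30 in Snf5-/- cells, while the mutants differed by 0.96 ± 0.28 with an adjusted p of 0.0789. Mad2l1, the Mad2 protein that binds Cdc20 at unattached kinetochores, measured 1048, 1295, 1310.0 and 1028 in Brg1-/- arrays, 882, 562 and 769 in Snf5-/- arrays, and 492, 453 and 396 in WT arrays. It passed in all 3 comparisons and was 0.68 ± 0.16 higher in Brg1-/- than in Snf5-/- cells.

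The checkpoint kinase Bub1 measured 316, 498, 553 and 363 in Brg1-/- arrays, 278, 198 and 249 in Snf5-/- arrays, and 162, 159 and 104 in WT arrays. It rose by 1.60 ± 0.23 in Brg1-/- cells and 0.79 ± 0.24 in Snf5-/- cells. Ttk, the Mps1 kinase at the head of the checkpoint, ranged over 109 to 322 in Brg1-/- arrays, 82.7 to 210.4 in Snf5-/- arrays and 54.0 to 124 in WT arrays. Its rise in Brg1-/- cells (1.30 ± 0.44, adjusted p = 0.0462) passed although the 109 of replicate 1 lay below the 124 of WT replicate 2. Bub3, the partner of Bub1 and BubR1, had the smallest rise in Brg1-/- cells, 0.32 ± 0.10, and its direction turned to -0.29 on the deposited scale. Its intensities were 2657 to 2862 in Brg1-/- arrays, 2191 to 2874 in Snf5-/- arrays and 2157 to 2296 in WT arrays.

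In the chromosomal passenger complex, which corrects faulty attachments, the 3 tested genes rose in both mutants. Incenp, the scaffold of the complex, measured 896, 1062, 853 and 872 in Brg1-/- arrays, 584, 492 and 538 in Snf5-/- arrays, and 307, 349 and 263 in WT arrays. Groups were apart in every comparison, with log2 changes of 1.59 ± 0.13 in Brg1-/- cells, 0.82 ± 0.14 in Snf5-/- cells and 0.77 ± 0.13 between the mutants. Dimmer probe sets of Incenp, in the limma fit of all probe sets, did not pass in Snf5-/- cells against WT. They changed by 0.35 (adjusted p = 0.220) and -0.70 (adjusted p = 0.401) there. In Brg1-/- cells they changed by 1.18 (adjusted p = 0.000498) and 1.16 (adjusted p = 0.108). Birc5, survivin, measured 1628, 2159, 2074 and 1352 in Brg1-/- arrays, 997, 833 and 873 in Snf5-/- arrays, and 517, 708 and 552 in WT arrays. Brg1-/- cells exceeded Snf5-/- cells by 0.98 ± 0.17 (adjusted p = 0.0108), and Snf5-/- cells exceeded WT cells by 0.61 ± 0.18. Aurkb, the kinase of the complex, measured 392, 560.0, 514 and 617 in Brg1-/- arrays, 386, 358 and 310.0 in Snf5-/- arrays, and 196, 268 and 236 in WT arrays. It rose in both mutants, and the difference between them, 0.56 ± 0.17, had an adjusted p of 0.0911.

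Of 5 centromere and kinetochore genes 4 rose in Brg1-/- cells and 2 in Snf5-/- cells. Cenpa, the histone that marks centromeres, measured 1086, 1373, 1316 and 706 in Brg1-/- arrays, 832, 349 and 419 in Snf5-/- arrays, and 206, 243 and 295 in WT arrays. Both mutants were apart from WT, and the mutants overlapped because Brg1-/- replicate 4 was below Snf5-/- replicate 1. The change was 2.15 ± 0.29 in Brg1-/- cells (adjusted p = 0.000241) and 1.01 ± 0.31 in Snf5-/- cells (adjusted p = 0.0403), and the mutants differed by 1.13 ± 0.29 (adjusted p = 0.049). Spc25, of the Ndc80 complex that grips microtubules, measured 627, 893, 874 and 852 in Brg1-/- arrays, 599, 391 and 454 in Snf5-/- arrays, and 275, 188 and 227 in WT arrays. It passed in all 3 comparisons, with no overlap. Cenpe, a kinetochore motor, measured 144, 164, 279 and 134 in Brg1-/- arrays, 147, 108 and 97.3 in Snf5-/- arrays, and 74.9, 62.5 and 52.9 in WT arrays. In Snf5-/- cells every array was above WT, but the change of 0.88 ± 0.32 had an adjusted p of 0.0774.

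Nuf2, another subunit of the Ndc80 complex, rose by 1.34 ± 0.29 in Brg1-/- cells, over 283 to 762 in Brg1-/- arrays, 205 to 343 in Snf5-/- arrays and 182 to 217 in WT arrays. Ndc80 itself measured 254, 222, 256 and 183 in Brg1-/- arrays, 112, 15.3 and 151 in Snf5-/- arrays, and 86.9, 103 and 83.2 in WT arrays. All Brg1-/- arrays were above all WT arrays, yet the log2 change of 1.32 ± 0.60 had an adjusted p of 0.121. Snf5-/- replicate 2, at 15.3, lay far below the other arrays, and the Snf5-/- change of -0.51 became 0.51 without it.

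All 9 spindle and microtubule genes rose in Brg1-/- cells and 4 in Snf5-/- cells. Stmn1, stathmin, which destabilizes microtubules, measured 4375, 5488, 5404 and 4471 in Brg1-/- arrays, 3401, 2016 and 3355 in Snf5-/- arrays, and 1138, 1758 and 1469 in WT arrays. The groups did not overlap, and Brg1-/- and Snf5-/- cells exceeded WT by 1.78 ± 0.19 and 0.99 ± 0.20. Nusap1, which bundles spindle microtubules, measured 499, 649, 623 and 599 in Brg1-/- arrays, 481, 317 and 478 in Snf5-/- arrays, and 131, 225 and 181 in WT arrays. It rose in both mutants, which differed by 0.50 ± 0.20 (adjusted p = 0.178). Dlgap5, a stabilizer of kinetochore fibres, measured 441, 579, 597 and 422 in Brg1-/- arrays, 243, 190.4 and 254 in Snf5-/- arrays, and 155, 213 and 187 in WT arrays. Snf5-/- arrays overlapped WT arrays (0.31 ± 0.19, adjusted p = 0.287), while Brg1-/- cells exceeded Snf5-/- cells by 1.15 ± 0.18 (adjusted p = 0.0061).

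Prc1, Spag5 and Tacc3 also rose in Brg1-/- cells but did not pass in Snf5-/- cells against WT, and were higher in Brg1-/- than in Snf5-/- cells. Prc1, which crosslinks microtubules of the central spindle, measured 1187, 1409, 1185 and 1063 in Brg1-/- arrays, 793, 493 and 699.6 in Snf5-/- arrays, and 633, 497 and 546 in WT arrays. Tacc3, which joins microtubules of kinetochore fibres, measured 355, 383, 416 and 219 in Brg1-/- arrays, 218, 137 and 136 in Snf5-/- arrays, and 109.5, 94.2 and 121 in WT arrays. Spag5, astrin, measured 243, 294, 235 and 179 in Brg1-/- arrays, 139, 149 and 106 in Snf5-/- arrays, and 126, 124 and 111 in WT arrays. Differences between the mutants were 0.89 ± 0.16 for Prc1, 1.06 ± 0.25 for Tacc3 and 0.85 ± 0.21 for Spag5. The Snf5-/- changes against WT of Prc1 (0.22) and Spag5 (0.11) turned to -0.07 and -0.15 on the deposited scale.

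The remaining spindle genes were Hmmr, Ckap2 and Tpx2. Hmmr, a spindle protein also known as a hyaluronan receptor, rose in both mutants, over 803 to 1213 in Brg1-/- arrays, 425 to 857 in Snf5-/- arrays and 267 to 362 in WT arrays. Ckap2, which binds spindle microtubules, did too, over 1369 to 2029 in Brg1-/- arrays, 1045 to 2268 in Snf5-/- arrays and 733 to 882 in WT arrays, and its highest array was Snf5-/- replicate 3. Dimmer probe sets of Hmmr, in the limma fit of all probe sets, each rose in Brg1-/- cells. In Snf5-/- cells against WT they changed by 0.72 (adjusted p = 0.0109), 0.67 (adjusted p = 0.0975) and 0.09 (adjusted p = 0.842). Tpx2, the activator of Aurora A, rose by 0.53 ± 0.17 in Brg1-/- cells (adjusted p = 0.0346), the smallest change of the spindle genes. On the deposited scale the change was 0.08 and did not pass (adjusted p = 0.752). A dimmer probe set of Tpx2 rose by 1.07 ± 0.22 in Brg1-/- cells, in the limma fit of all probe sets (adjusted p = 0.00418).

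Condensin and chromosome structure genes rose in Brg1-/- cells in 7 of 7 cases and in Snf5-/- cells in 4, and 6 were higher in Brg1-/- than in Snf5-/- cells. Top2a, the topoisomerase that untangles sister chromatids, measured 1763, 2506, 2298 and 1919 in Brg1-/- arrays, 1423, 1032 and 1312 in Snf5-/- arrays, and 524, 693 and 557 in WT arrays. Mki67, the Ki-67 protein that coats mitotic chromosomes, measured 1048, 1372, 1396 and 1066 in Brg1-/- arrays, 765, 445 and 597 in Snf5-/- arrays, and 326, 370.0 and 289 in WT arrays. Neither gene had any overlap between groups, and Mki67 exceeded WT by 1.89 ± 0.18 in Brg1-/- cells and 0.85 ± 0.19 in Snf5-/- cells. Top2a exceeded WT by 1.84 ± 0.15 and 1.08 ± 0.17.

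The condensin I complex pairs the ATPases Smc2 and Smc4 with Ncapd2, Ncapg and Ncaph. Smc4 measured 1238, 1658, 1474 and 1268 in Brg1-/- arrays, 1000.1, 689 and 973 in Snf5-/- arrays, and 607, 546 and 509 in WT arrays. Ncapd2 measured 705, 1060.0, 1114 and 785 in Brg1-/- arrays, 690.1, 440.1 and 519 in Snf5-/- arrays, and 236, 264 and 259 in WT arrays. Both rose in both mutants and were higher in Brg1-/- than in Snf5-/- cells, by 0.68 ± 0.15 and 0.73 ± 0.19. Ncapg measured 327, 362, 383 and 421 in Brg1-/- arrays, 217, 189.6 and 129 in Snf5-/- arrays, and 159, 151 and 146 in WT arrays. Ncaph measured 603, 845, 709.7 and 578 in Brg1-/- arrays, 493, 394 and 447 in Snf5-/- arrays, and 372, 454 and 339 in WT arrays. For both of these subunits Snf5-/- arrays overlapped WT arrays, with changes of 0.20 and 0.20 that turned to -0.06 and -0.07 on the deposited scale. Brg1-/- cells exceeded Snf5-/- cells by 1.09 ± 0.18 for Ncapg (adjusted p = 0.00982) and 0.61 ± 0.16 for Ncaph (adjusted p = 0.049). Each had a dimmer probe set, tested in the limma fit of all 13370 probe sets. That of Ncaph rose in Snf5-/- cells against WT (0.56, adjusted p = 0.0376). Between the mutants it did not pass (0.385, adjusted p = 0.170). That of Ncapg passed in neither comparison, with changes of 0.90 (adjusted p = 0.111) and 0.79 (adjusted p = 0.201). Smc2 rose by 1.08 ± 0.17 in Brg1-/- cells, over 843 to 1305 in Brg1-/- arrays, 549 to 798 in Snf5-/- arrays and 467 to 579.6 in WT arrays.

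Cytokinesis was represented by 3 genes, all of which rose in Brg1-/- cells. Racgap1, of the centralspindlin complex, measured 842, 1087, 996 and 835 in Brg1-/- arrays, 596, 547 and 504 in Snf5-/- arrays, and 337, 456 and 403 in WT arrays. Its groups were apart and it passed in all 3 comparisons. Anln, anillin of the contractile ring, measured 1039, 1262, 1559 and 1481 in Brg1-/- arrays, 1300.2, 799 and 1073 in Snf5-/- arrays, and 642, 708 and 605 in WT arrays. It rose in both mutants, which overlapped (0.35 ± 0.17, adjusted p = 0.267). Ect2, which acts at the cleavage furrow, measured 366, 606, 551 and 418 in Brg1-/- arrays, 494, 183 and 519.7 in Snf5-/- arrays, and 196, 193 and 224 in WT arrays. Snf5-/- replicate 2 lay just below the WT arrays while the other Snf5-/- arrays lay among the Brg1-/- arrays, and the Snf5-/- change of 0.82 ± 0.33 did not pass (adjusted p = 0.11).

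Genes of mitotic exit and proteolysis rose in both mutants in 4 of 4 tested cases. Ube2c, the ubiquitin-conjugating enzyme of the anaphase-promoting complex, measured 2033, 2421, 2285 and 1949 in Brg1-/- arrays, 1265, 1095 and 1029 in Snf5-/- arrays, and 530.3, 629.8 and 500.4 in WT arrays. Groups did not overlap, and changes were 1.97 ± 0.12 in Brg1-/- cells (adjusted p = 1.88e-06), 1.03 ± 0.13 in Snf5-/- cells and 0.94 ± 0.12 between the mutants (adjusted p = 0.00231). Cdc20, the activator of that ligase, measured 3594, 5096, 4665 and 3769 in Brg1-/- arrays, 3079, 1775 and 2206 in Snf5-/- arrays, and 934, 1199.8 and 954 in WT arrays. Cdca3, a protein of mitotic entry that the same ligase degrades, measured 1089, 1567, 1420.2 and 1184 in Brg1-/- arrays, 924, 511 and 623 in Snf5-/- arrays, and 274, 329 and 296 in WT arrays. Both were apart in every comparison, with changes in Brg1-/- cells of 2.05 ± 0.18 and 2.12 ± 0.19. Pttg1, securin, rose by 0.58 ± 0.11 in Brg1-/- cells and 0.41 ± 0.12 in Snf5-/- cells, but these changes were -0.04 and 0.04 on the deposited scale, and neither passed there.

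**Figure D3:**
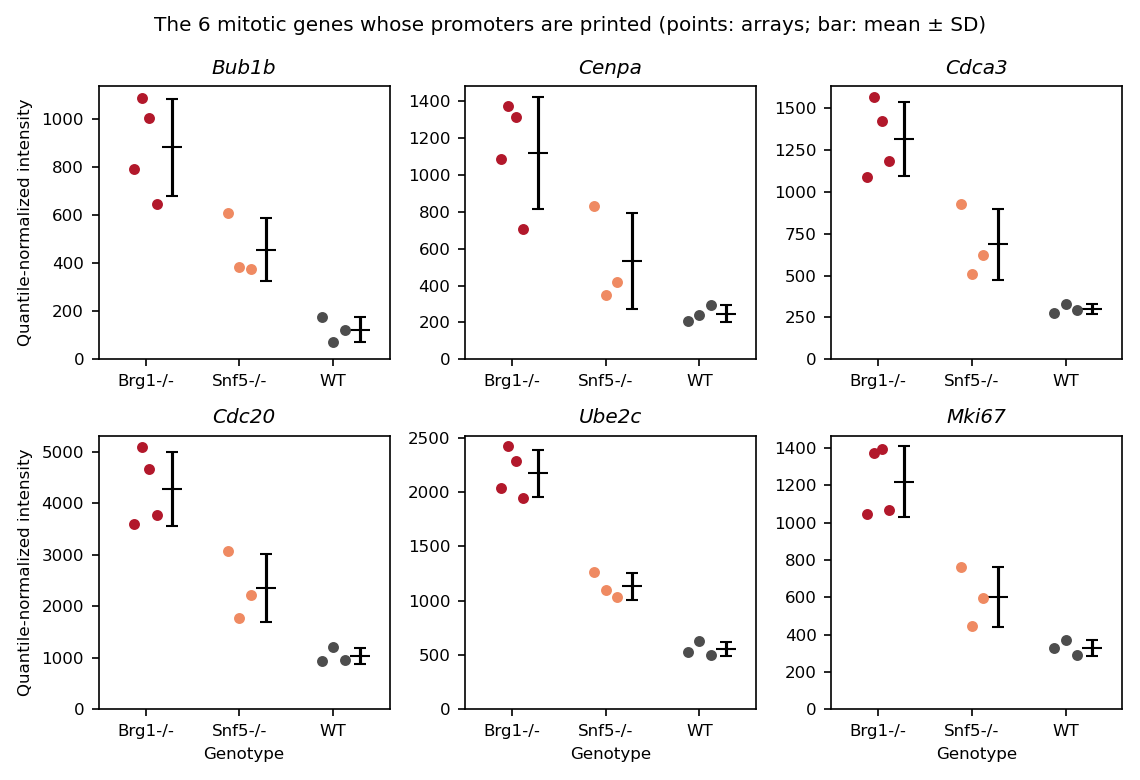
Quantile-normalized intensity (y axes, linear) of the 6 genes with the largest log2 change in Brg1-/- cells against WT, with a point for each array and a bar at the group mean ± SD. In each gene every Brg1-/- array lies above every WT array; for Cenpa, Brg1-/- replicate 4 at 706 lies below Snf5-/- replicate 1 at 832.

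A graded order across genotypes was common in this group. Mean log2 levels ran Brg1-/- above Snf5-/- above WT for 43 of 45 genes, and the exceptions were Cdc25b and Ndc80. The share of all genes with that order of means was not counted. For 23 genes every Brg1-/- array was above every Snf5-/- array and every Snf5-/- array above every WT array, an order seen for 156 of all 8397 genes (1.86%). All 3 comparisons passed, each upward, for 17 genes. At most 2.10% of all genes can do so, the share that was higher in Brg1-/- than in Snf5-/- cells. A further 15 genes rose in Brg1-/- cells and did not pass in Snf5-/- cells against WT, and 7 of these were higher in Brg1-/- than in Snf5-/- cells in the direct test, namely Foxm1, Dlgap5, Prc1, Tacc3, Spag5, Ncapg and Ncaph. For the other 8 the direct test did not pass, so a difference between the mutants is not shown. The share of all genes like the 15 was not counted. It is at most 14.9%, the share that rose in Brg1-/- cells against WT. For genes like the 7 it was not counted either and is at most 2.10%. Dimmer probe sets past the filter passed between the mutants for Prc1, and not for Foxm1, Tacc3, Spag5, Ncapg and Ncaph. That of Ncaph also rose in Snf5-/- cells against WT.

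**Figure D4:**
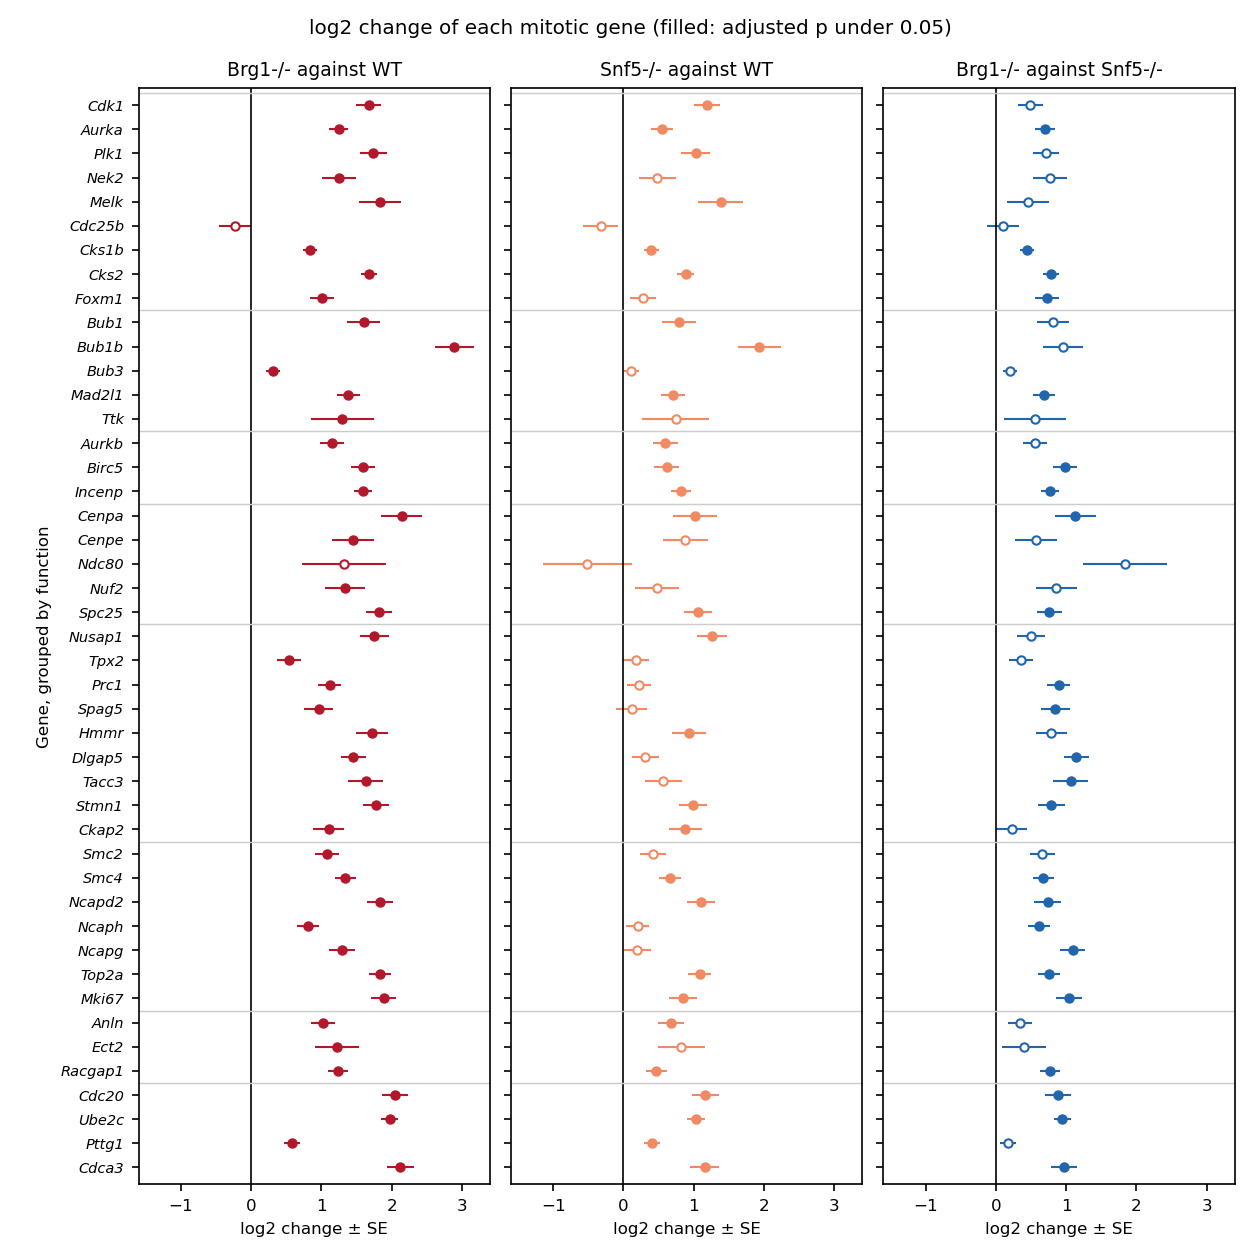
Log2 change ± SE (x axes) of the 45 genes, down the page by function, in Brg1-/- against WT, Snf5-/- against WT and Brg1-/- against Snf5-/-, with filled points where the adjusted p was under 0.05. The medians are 1.39, 0.70 and 0.76, and 43, 28 and 24 points are filled.

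Several genes had more than 1 probe set, and the brightest stood for the gene. In all 23 genes had several, and 27 probe sets past the filter did not stand for a gene. Of these 27, 21 rose and 0 fell in Brg1-/- cells against WT, 9 rose in Snf5-/- cells and 9 were higher in Brg1-/- than in Snf5-/- cells, when all 13370 probe sets past the filter were fitted, of which 12.8%, 8.78% and 2.01% rose. A further probe set of Cdca3 changed by 0.07 in Brg1-/- cells. For Tacc3, Bub3 and Pttg1 such a probe set changed by 0.21, 0.18 and -0.34, none past the threshold. Another of Tacc3 changed by 1.46 and one of Incenp by 1.16, also not past it. Another of Pttg1 rose by 0.56 in Brg1-/- cells and 0.57 in Snf5-/- cells (adjusted p = 0.0164 and 0.0305 in that fit).

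Mitotic genes outside the 48 were also counted. A list of 100 further genes of the anaphase-promoting complex, kinetochore, cohesin, condensin II, mitotic kinases and the DREAM complex had 71 genes on the array and 66 past the filter. Of these 25 rose and 4 fell in Brg1-/- cells, where 14.9% of all genes rose and 12.9% fell. In Snf5-/- cells 7 rose and 3 fell, against 10.6% and 7.47% of all genes, shares near those of the list. In Brg1-/- against Snf5-/- cells 7 were higher and 0 lower, against 2.10% and 2.27% of all genes. Their median log2 changes were 0.31, 0.14 and 0.22. Without further scaling 8 rose and 12 fell in Brg1-/- cells, against 3.43% and 44.1% of all genes, and 2 rose and 6 fell in Snf5-/- cells, against 3.16% and 16.1%.

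Plk4, the kinase of centriole duplication, averaged 548 ± 71.0 in Brg1-/- cells (SD, n = 4), 308 ± 62.0 in Snf5-/- cells and 177 ± 30.7 in WT cells (n = 3 each). It rose by 1.64 ± 0.17 in Brg1-/- cells and 0.79 ± 0.18 in Snf5-/- cells. Pkmyt1, an inhibitory kinase of Cdk1, rose by 1.51 ± 0.22 and 1.02 ± 0.24. The largest change belonged to Sgo1, the protector of centromeric cohesin, which averaged 268 ± 29.6 in Brg1-/- cells, 213 ± 108 in Snf5-/- cells and 41.7 ± 30.7 in WT cells, with 2 of 3 WT arrays at or below the bacterial control level. The other cohesin genes named by the rule were Smc3 (0.72) and Cdca5, sororin (0.89), in Brg1-/- cells. Kinetochore genes Dsn1 and Ska2 rose by 1.17 ± 0.12 and 0.89 ± 0.15 in Brg1-/- cells.

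Smaller rises in Brg1-/- cells were found for the anaphase-promoting complex, with 0.47 for its subunit Cdc16, 0.71 for its chain-elongating enzyme Ube2s and 0.63 for its RING subunit Anapc11. On the deposited scale none of the rises of that list passed, and the change of Cdc16 turned to -0.11. Mybl2, the B-Myb factor that joins MuvB to activate late cell cycle genes, rose by 1.01 ± 0.25 in Brg1-/- cells, and E2f8, a repressor of the E2F family, by 0.69 ± 0.24. Condensin II, the nuclear relative of condensin I, had 2 tested genes, Ncapg2 (0.68 ± 0.25, adjusted p = 0.0656) and Ncaph2 (0.26 ± 0.18, adjusted p = 0.317), and neither passed.

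Zwint, a kinetochore protein that binds the Rod-Zw10 complex, fell in both mutants. It averaged 1492 ± 118 in Brg1-/- cells, 1856 ± 182 in Snf5-/- cells and 2626 ± 102 in WT cells, with log2 changes of -0.82 ± 0.10 and -0.50 ± 0.10. The kinase Nek7 fell too, with log2 changes of -0.58 ± 0.11 in Brg1-/- and -0.63 ± 0.12 in Snf5-/- cells. In Brg1-/- cells Stk10 (-1.31 ± 0.45, adjusted p = 0.0462) and E2f5 (-0.39 ± 0.14, adjusted p = 0.0486) fell. In Snf5-/- cells E2f1 fell (-0.49 ± 0.15, adjusted p = 0.0382).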

How the data were processed

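RNA of primary fibroblasts was measured on 10 Affymetrix arrays, and the authors deposited a linear intensity per probe set made with MAS5, per the submitters' processing notes, which name no version or scaling target. The table held 22690 probe sets, of which 64 controls were left out, and 20380 others carried a single gene symbol in the annotation supplied for the array. Intensities were quantile-normalized and taken to log2 with no pseudocount. A probe set was tested if 3 or more arrays had it at their own 40th percentile or higher, and the one with the greatest mean on the log2 scale stood for its gene.

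The fit used limma 3.58.1 in R 4.3.3, with 1 mean per genotype and eBayes with an intensity trend (7 residual degrees of freedom). Tests were two-sided, with Benjamini-Hochberg adjustment over 8397 genes in each of 3 comparisons and a threshold of 0.05. The script was tested on simulated data. Alternatives were the deposited scale, median centring, no filter or a filter at the 60th percentile, 16 units added before log2, the mean of a gene's probe sets, no trend, a replicate block, only the arrays of the groups compared, and leaving out each array. The background level of an array, 26.7 to 57.4, was the brightest of its 27 control probe sets for Bacillus subtilis, a choice made after the values were seen. An at-least fold sets the mean log2 value of the brighter group against the mean of, per array, the higher of that level and the gene's own value.

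All 48 genes are accounted for. Values in every array are given for the 3 genes per function with the smallest adjusted p in Brg1-/- against WT, for genes that passed in Brg1-/- against Snf5-/-, for any that fell and for any that passed in no comparison. Of the other mitotic genes, up to 3 per list with the smallest adjusted p, and any that fell, are named. Genes and lists were chosen with earlier results of these data known. Promoters are those RefSeq lists for GRCm38.p6, matched by symbol.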

Additional observations from a re-analysis of the deposited data

Results flagged for a closer look

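Groups of 4 arrays were examined for a single array far from the rest, which chance finds in about 1 in 20 groups. Among the 45 mitotic genes, 2 had such an array in the Brg1-/- group, a count near what that rate gives. Melk measured 209, 387, 215 and 225 in Brg1-/- arrays, and replicate 2 was separated from its nearest neighbour by 0.883 of the group's range on the log2 scale. Spc25 measured 627, 893, 874 and 852, and replicate 1 was separated by 0.866 of the range, on the low side. The groups of 3 arrays were not examined in this way.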

How the results depend on the processing

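Calls held best in Brg1-/- against WT and least in Brg1-/- against Snf5-/-. For Brg1-/- against WT, 32 of 43 rises were called in every alternative that tested the gene, apart from leaving out single arrays. Leaving out an array gave 40 to 44 genes. For Snf5-/- against WT these were 10 of 28 and 15 to 28, and for Brg1-/- against Snf5-/- 5 of 24 and 9 to 26. The filter at the 60th percentile tested only 38 of the 45 genes, and a gene dropped there was not counted as lost. None of the 45 genes was called lower in any alternative. Leaving out an array gave 922 to 1659 genes over the whole array for Snf5-/- against WT and 120 to 491 for Brg1-/- against Snf5-/-, and medians of the 45 genes of 1.30 to 1.54, 0.56 to 0.88 and 0.62 to 0.84 in the 3 comparisons.

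On the deposited scale 3990 of all genes were called in Brg1-/- against WT, against 2332, and the medians of the 45 were 0.91 against WT in Brg1-/- cells and 0.41 in Snf5-/- cells. Members called were then 13 for Snf5-/- against WT and 6 for Brg1-/- against Snf5-/-. The last comparison also had 15 with median centring, 15 with the mean of all probe sets, 12 with no trend and 13 with only the arrays of both mutants, where all genes called were 193 and 149 under the last pair, against 367. The cause was not tested. Array numbers shared between groups did not pair the arrays (9 same-numbered pairs, correlations -0.07 to 0.10); with the replicate block 41, 27 and 22 genes were called.

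Changes of sign on the deposited scale were Bub3 -0.29 and Pttg1 -0.0442 in Brg1-/- against WT, where both had been called higher; Bub3 -0.25, Tpx2 -0.10, Prc1 -0.0711, Spag5 -0.15, Ncaph -0.0716 and Ncapg -0.0642 in Snf5-/- against WT; and Cdc25b -0.0541, Bub3 -0.0365, Ckap2 -0.0149 and Pttg1 -0.0878 between the mutants. With the mean of probe sets Bub3 was -0.19 and Tacc3 -0.0744 in Snf5-/- against WT. Leaving out an array gave Bub3 -0.0181 (without Snf5-/- replicate 1) to 0.178 and Ndc80 -1.13 to 0.514 (without Snf5-/- replicate 2) in Snf5-/- against WT. Between the mutants it gave Cdc25b -0.0124 to 0.264, Ckap2 -0.00582 to 0.553 and Ect2 -0.093 to 0.659, each lowest without Snf5-/- replicate 2.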

Other observations

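The spacing of the promoter elements was examined after their positions were seen, so it has no test. A CCAAT match, on either strand, began 20 to 45 bases before a TTTGAA or TTCGAA match in 20 of 43 promoters of the mitotic genes (46.5%), which belong to 17 genes. The same spacing occurred in 92 of 8844 promoters of tested genes (1.04%) and in 364 of all 32851 promoters (1.11%). At least 2 CCAAT matches stood in 51.2% of the mitotic promoters, against 14.3% of those of tested genes and 18.6% of those of genes that rose in Brg1-/- cells.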
